A study of Saccharomyces cerevisiae with 9 samples.

Results

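The genes described here are the 9 genes of the thioredoxin and glutaredoxin systems in budding yeast: TRX1 (YLR043C), TRX2 (YGR209C), TRX3 (YCR083W), TRR1 (YDR353W), TRR2 (YHR106W), GLR1 (YPL091W), GRX1 (YCL035C), GRX2 (YDR513W) and GRX5 (YPL059W). They were chosen by open reading frame from the 5667 genes of the deposited table, and each of the 9 was measured by 1 probe set. The study hybridised total RNA of the BY4741 background, a haploid laboratory strain of mating type a, to Affymetrix Yeast 2.0 arrays on day 5 after inoculation. The medium was YPD, which is rich, and the temperature 30 °C. The non-restricted group (NR) had 2% glucose, the calorically restricted group (CR) 0.5% glucose, and the rapamycin group (RM) 2% glucose with 100 nM rapamycin, which inhibits TOR signalling. There were 3 biological replicates per group, each on its own array, and all groups share the strain and its deleted marker genes.

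Thioredoxins and glutaredoxins are small proteins that reduce disulfides in other proteins. A thioredoxin is returned to its reduced state by thioredoxin reductase, which draws on NADPH. A glutaredoxin uses glutathione, which glutathione reductase regenerates with NADPH. Yeast keeps a cytosolic set (TRX1, TRX2, TRR1, GRX1), a mitochondrial set (TRX3, TRR2, GRX5), and 2 genes, GLR1 and GRX2, whose products are found in both places. The cytosolic thioredoxins serve peroxiredoxins, methionine sulfoxide reductases and ribonucleotide reductase, and TRX2, TRR1 and GLR1 are textbook targets of the oxidative stress factor Yap1.

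The strain label was checked on the arrays. URA3, LEU2 and MET17, which are deleted in BY4741, had log2 signals between 0.71 and 2.01 on the 9 arrays. HIS3, which is only partly deleted in that strain, lay between 5.38 and 6.83. The a-type genes STE2 and MFA1 lay at 6.88 or above, while the alpha-type STE3 lay between 4.63 and 6.85. In CR the means of STE2 and STE3 were close, at 6.94 and 6.80, so this pair did not tell the types apart there. The CR mean was 8.48 for MFA1 and 2.42 for the alpha-type MF(ALPHA)1. A log2 signal here stands for a level relative to all RNA on the array, and in such bulk samples fewer cells with a transcript and less of it per cell cannot be told apart. The NR arrays varied most. The median within-group SD over all probe sets was 0.293 on the log2 scale in NR, 0.161 in RM and 0.0553 in CR, and arrays of a group correlated at 0.929 to 0.977 in NR, 0.980 to 0.995 in RM and 0.997 to 0.998 in CR. NR replicate 3 stood apart in the alpha-factor gene MF(ALPHA)1, at a log2 signal of 6.62 against 3.50 on each of the other 2 NR arrays. The part of this spread in the results below was not tested, and values without single arrays are given where they change a call.

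A gene is called changed at an adjusted p under 0.05 in a limma fit of the log2 signals on all 9 arrays, adjusted by Benjamini-Hochberg over all 5716 probe sets. The groups share a single estimate of spread per gene, so its SE is the same in every comparison, although NR varied most. Against NR, 3 of 9 were higher under CR (TRR1, GRX5, TRX2) and 3 were lower (TRX1, GRX2, GRX1), beside 35.2% and 33.8% of all probe sets, so that the members were called about as often as all probe sets. The count of lower genes lay between 2 and 4 when each array was left out in turn, and the count of higher genes stayed at 3. At 2-fold or more, TRR1 alone was higher and TRX1 alone lower, beside 17.7% and 20.0% of all probe sets.

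Under rapamycin 5 of the 6 members called against NR lost the call without 1 or more single arrays. Against NR, 2 of 9 were higher under RM (TRX3 and GRX5) and 4 were lower (GRX2, TRR1, GRX1 and GLR1), beside 17.6% and 19.5% of all probe sets. At 2-fold, 0 members were called in either direction, beside 3.97% of probe sets higher and 4.67% lower. That limit was passed by TRX3 without NR replicate 1 (log2 fold change 1.11), NR replicate 2 (1.07) or RM replicate 3 (1.01) and with arrays centred on their median, and by TRX1 without NR replicate 1 (-1.54). The count of higher genes fell to 1 without any 1 CR array or without RM replicate 1 or 2, and to 1 with the replicate number as a block. The count of lower genes fell to 0 without RM replicate 1 or without RM replicate 2, and to 1 or 2 without CR replicate 1, 2 or 3, without NR replicate 2 or 3, or without RM replicate 3. Over all probe sets the calls fell from 1007 higher and 1113 lower to 603 and 608 without RM replicate 1. They fell to 707 and 686 without RM replicate 2 and to 767 and 824 without CR replicate 1. Without NR replicate 3 they were 1024 and 1144. With array weights estimated per group, the RM comparison kept 1 higher call, TRX3, and 0 lower.

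Set directly against each other, CR was higher than RM in 3 of 9 genes (TRR1, TRX2, GRX5) and lower in 2 (TRX3, TRR2), beside 29.5% and 26.7% of all probe sets. The lower count was 1 without any 1 CR or RM array and 3 without NR replicate 1 or 2. TRR1 alone passed 2-fold here, beside 12.6% of probe sets higher and 13.5% lower at that limit. The median log2 fold change of the 9 genes was 0.03 for CR over NR, -0.45 for RM over NR and 0.14 for CR over RM. Over all probe sets the medians were 0.02, -0.05 and -5.1e-05. Leaving out single arrays moved the members' medians from -0.20 (without NR replicate 3) to 0.27 (without NR replicate 2) for CR over NR, from -0.52 to -0.36 for RM over NR, and from 0.08 (without RM replicate 2) to 0.20 for CR over RM. The CR and RM comparisons share the 3 NR arrays, so their values are given side by side and are not independent.

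**Figure D1:**
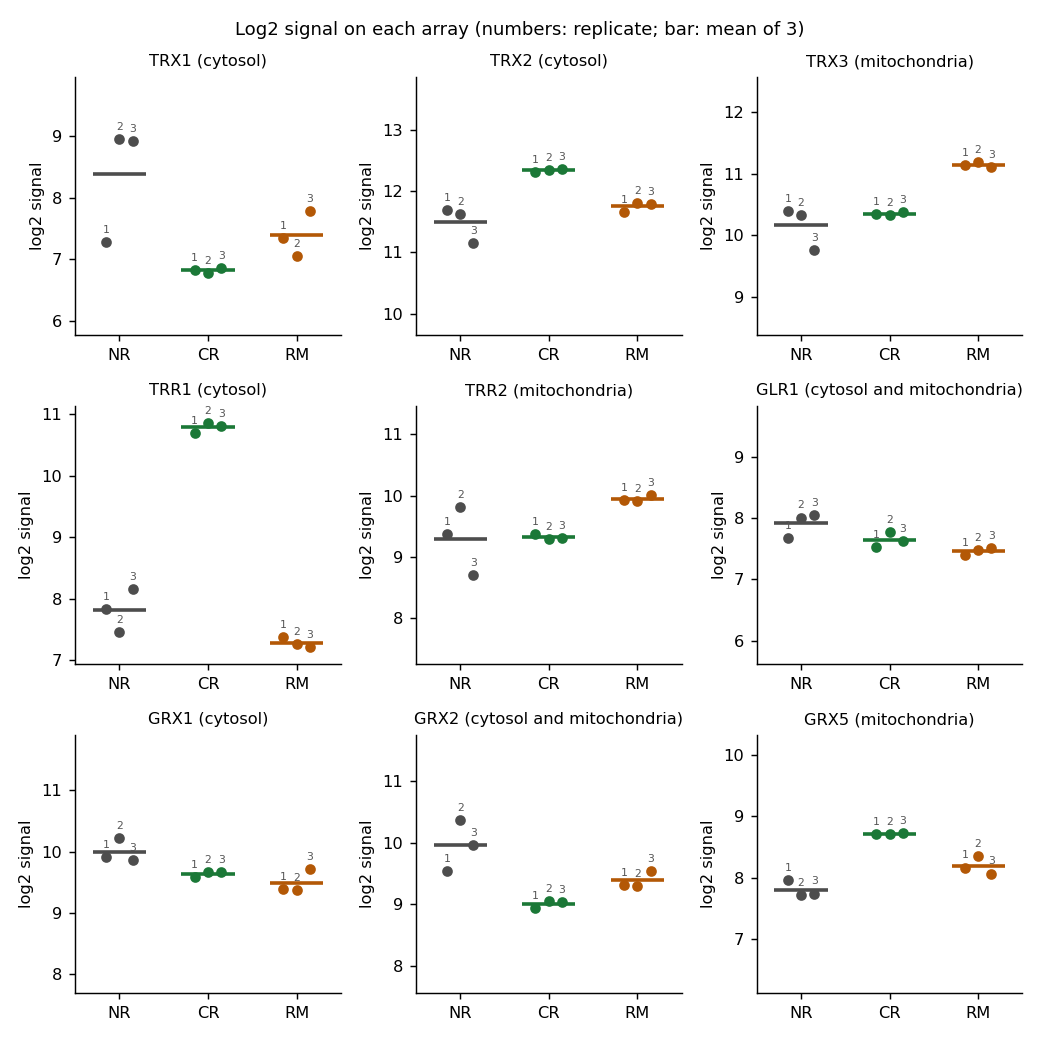
Log2 signal of each gene (y axis, the same span in every panel) on the 3 NR, 3 CR and 3 RM arrays (x axis), with the replicate number over each point and a bar at the mean of 3. TRR1 sits above 10.6 on the CR arrays and below 8.2 on the other 6, and the NR points spread widest for TRX1, from 7.29 to 8.96.

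TRR1, the cytosolic thioredoxin reductase, had the largest change among the members. Its log2 signal was 7.83, 7.45 and 8.15 on the NR arrays, 10.69, 10.86 and 10.80 on the CR arrays, and 7.37, 7.26 and 7.20 on the RM arrays. The CR arrays lay far above all others, and every RM array lay below every NR array. TRR1 was 7.87-fold higher in CR than in NR (log2 fold change 2.98 ± 0.17 SE, adjusted p = 1.33e-06, limma, 3 arrays per group). It ranked 11 of 5716 probe sets by log2 fold change. Against RM it was 11.4-fold higher (log2 fold change 3.51, 95% interval 3.13 to 3.89, adjusted p = 8.09e-07) and ranked 3. The order of its levels was CR, then NR, then RM.

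The step from NR to RM was small for TRR1, at a log2 fold change of -0.53 ± 0.17 SE (adjusted p = 0.0370, limma). That call held in 1 of the 9 fits that left out an array, the one without NR replicate 2. Without each of the other 8 arrays in turn the adjusted p lay above 0.05, up to 0.0921, and it was 0.0524 with the replicate block.

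TRR2, the mitochondrial thioredoxin reductase, was not called in CR over NR. Its log2 signal was 9.38, 9.82 and 8.70 in NR, 9.37, 9.29 and 9.32 in CR, and 9.92, 9.92 and 10.02 in RM. The CR arrays lay inside the NR range, and the RM arrays lay above it. The CR over NR difference was 0.03 on the log2 scale, with a 95% interval of -0.50 to 0.56 (adjusted p = 0.924), and it turned to -0.27 without NR replicate 3. RM exceeded NR by 0.65 ± 0.24 SE, which did not pass (adjusted p = 0.0551), and by 0.91 without NR replicate 2, where it did (adjusted p = 0.0131, in a range of 0.0131 to 0.126 over all alternatives). It also passed with arrays centred on their median (adjusted p = 0.0487) and with quantile normalization repeated (adjusted p = 0.0457). CR was 1.54-fold lower than RM (adjusted p = 0.0458). Among the fits that left out an array, that call remained only without NR replicate 2 or 3 (adjusted p from 0.00160 to 0.113). It was lost with the replicate block (adjusted p = 0.0516). The call was kept with array weights per group (adjusted p = 0.000649), with a fit to the 2 groups alone (adjusted p = 0.000172) and with arrays centred on their median (adjusted p = 0.0303).

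GLR1, glutathione reductase, had log2 signals of 7.67, 8.01 and 8.06 in NR, 7.53, 7.77 and 7.62 in CR, and 7.39, 7.48 and 7.52 in RM. All RM arrays lay below all NR arrays, while CR overlapped NR. GLR1 was lower in RM than in NR (log2 fold change -0.45 ± 0.13 SE, adjusted p = 0.0295, limma), with an adjusted p above 0.05 without CR replicate 3, NR replicate 2 or any 1 RM array (up to 0.0957). CR differed from NR by -0.27 (95% interval -0.58 to 0.03, adjusted p = 0.0949), and passed without NR replicate 1, at -0.39 (adjusted p = 0.0127), and with quantile normalization repeated (adjusted p = 0.0390), in a range up to 0.267 over the alternatives. CR over RM was 0.18 (95% interval -0.13 to 0.48). By their group means the 3 reductase genes thus gave 3 patterns: TRR1 was highest in CR, TRR2 in RM and GLR1 in NR. The TRR1 rise from NR to CR passed in all 17 alternatives. RM over NR for TRR2 and CR over NR for GLR1 were not called.

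The 2 cytosolic thioredoxins moved in opposite directions under CR. TRX2 had log2 signals of 11.70, 11.63 and 11.15 in NR, 12.30, 12.35 and 12.36 in CR, and 11.66, 11.81 and 11.78 in RM. Every CR array exceeded every other array, and RM overlapped NR. TRX2 was 1.79-fold higher in CR than in NR (log2 fold change 0.84 ± 0.15 SE, adjusted p = 0.000836, limma) and 1.50-fold higher than in RM (adjusted p = 0.00846). RM over NR was 0.26 (95% interval -0.08 to 0.60, adjusted p = 0.205).

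TRX1 had log2 signals of 7.29, 8.96 and 8.92 in NR, 6.82, 6.78 and 6.86 in CR, and 7.35, 7.05 and 7.79 in RM. NR replicate 1 lay 1.65 below the mean of the other NR arrays and inside the RM range, and all CR arrays lay below all others. TRX1 was 2.97-fold lower in CR than in NR (log2 fold change -1.57 ± 0.40 SE, adjusted p = 0.00624, limma). The fold change widened to -2.12 without NR replicate 1, and the call held without each array in turn. RM over NR was -0.99 ± 0.40 SE (adjusted p = 0.0788); without NR replicate 1 it was -1.54 and passed (adjusted p = 0.000906, in a range of 0.000906 to 0.226 over the alternatives). CR over RM was -0.58 (95% interval -1.48 to 0.32) and passed only without NR replicate 1 among the fits that left out an array, with an adjusted p of 0.0195 in a range up to 0.519. TRX1 also passed there with array weights per group (adjusted p = 0.0211) and with a fit to the 2 groups alone (adjusted p = 0.0205).

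TRX3, the mitochondrial thioredoxin, was highest in RM. Its log2 signal was 10.39, 10.33 and 9.75 in NR, 10.34, 10.33 and 10.38 in CR, and 11.14, 11.19 and 11.11 in RM. The RM arrays lay above all 6 others, and CR lay within the NR range. TRX3 was 1.98-fold higher in RM than in NR (log2 fold change 0.99 ± 0.17 SE, adjusted p = 0.00296, limma) and 1.74-fold lower in CR than in RM (adjusted p = 0.00261). Both calls held without each array in turn. CR over NR was 0.19 (95% interval -0.18 to 0.56, adjusted p = 0.329), and -0.01 without NR replicate 3.

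Among the glutaredoxins, GRX2 and GRX5 changed in opposite directions under CR. GRX2, the main dithiol glutaredoxin, had log2 signals of 9.54, 10.37 and 9.97 in NR, 8.94, 9.05 and 9.03 in CR, and 9.32, 9.29 and 9.55 in RM. The CR arrays lay below all others, and RM replicate 3 lay just above the lowest NR array. GRX2 was 1.94-fold lower in CR than in NR (log2 fold change -0.95 ± 0.19 SE, adjusted p = 0.00171, limma), and the call held without each array. RM over NR was -0.57 ± 0.19 SE (adjusted p = 0.0434), which was kept without NR replicate 1 and lost without each of the other 8 arrays (adjusted p up to 0.119). CR over RM was -0.38 (95% interval -0.81 to 0.05, adjusted p = 0.122). It passed without NR replicate 1 or 2, with array weights per group (adjusted p = 0.0109) and with a fit to the 2 groups alone (adjusted p = 0.00796), in a range up to 0.298.

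GRX1, its cytosolic paralogue, had log2 signals of 9.91, 10.22 and 9.85 in NR, 9.58, 9.66 and 9.66 in CR, and 9.39, 9.38 and 9.71 in RM. The NR arrays lay above all others, and CR and RM overlapped. GRX1 was 1.29-fold lower in CR than in NR (log2 fold change -0.36 ± 0.14 SE, adjusted p = 0.0434, limma). That call was lost without any 1 CR array, NR replicate 2 or RM replicate 1 (adjusted p up to 0.134), and with the replicate block (adjusted p = 0.0656) or array weights per group (adjusted p = 0.0850). RM was 1.42-fold lower than NR (adjusted p = 0.0239), lost without NR replicate 2, RM replicate 1 or RM replicate 2 (up to 0.0854). CR over RM was 0.14 (95% interval -0.18 to 0.46).

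GRX5, the monothiol glutaredoxin of the mitochondrial matrix that serves iron-sulfur cluster assembly, had log2 signals of 7.96, 7.72 and 7.74 in NR, 8.71, 8.71 and 8.73 in CR, and 8.17, 8.36 and 8.07 in RM. The 3 groups did not overlap, in the order CR, RM, NR. GRX5 was 1.88-fold higher in CR than in NR (log2 fold change 0.91 ± 0.12 SE, adjusted p = 0.000141, limma) and 1.43-fold higher than in RM (adjusted p = 0.00527), and both calls held without each array. RM over NR was 0.39 ± 0.12 SE (adjusted p = 0.0342). That call was kept without NR replicate 1 or 3 or RM replicate 3 and lost without each of the other 6 arrays (adjusted p up to 0.0960) and with the replicate block (adjusted p = 0.0575).

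**Figure D2:**
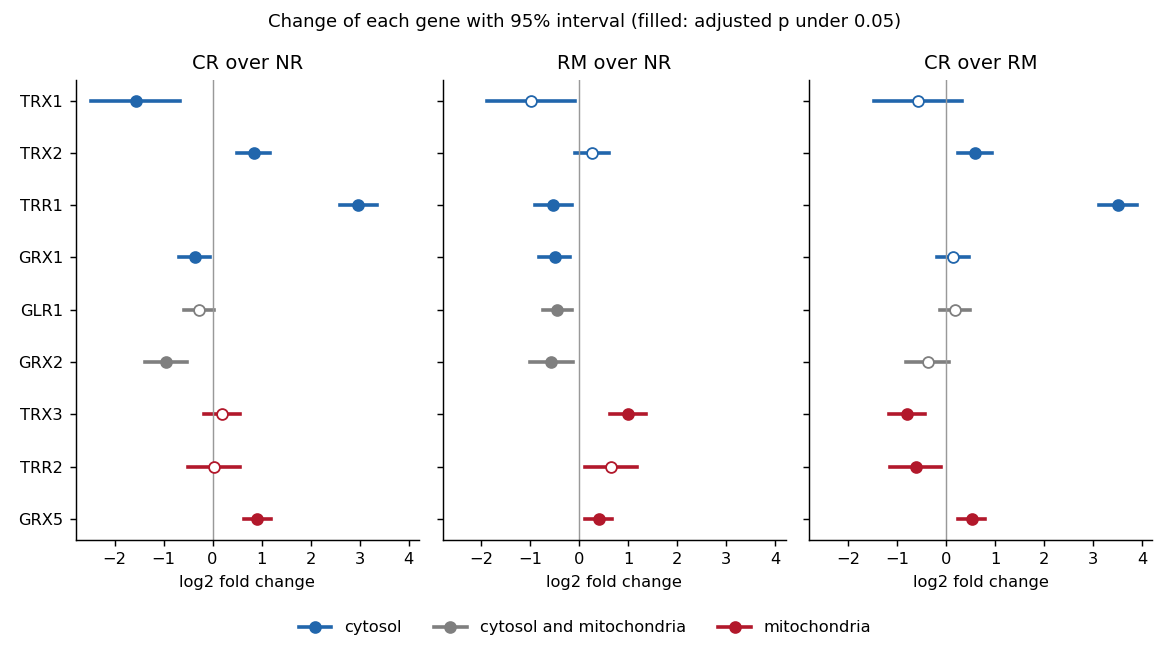
Log2 fold change of each gene (x axis) in the 3 comparisons, with its 95% interval from limma; filled points passed adjusted p under 0.05, and colour gives the compartment. TRR1 stands at 2.98 and 3.51 in the comparisons with CR, and in RM over NR the mitochondrial genes lie to the right of 0 and all others but TRX2 to the left.

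Cytosolic and mitochondrial members were set side by side. Against NR, 2 of 3 mitochondrial members were higher in RM and 0 lower (median log2 fold change 0.65), beside 17.6% and 19.5% of all probe sets. Of the 4 cytosolic members, 0 were higher and 2 lower (median -0.52), and both dual members were lower (median -0.51). Most of these calls lay near the threshold and were lost in some of the fits that left out an array. TRX3 held without each of the 9, whereas GRX5 was lost without 6 of them, and TRR1 and GRX2 without 8 each. The CR arrays enter RM over NR only through the shared estimate of spread. Without CR replicate 1, TRR1 stayed at a log2 fold change of -0.53, with an SE of 0.18 in place of 0.17. Without RM replicate 1 or 2, 1 mitochondrial member was higher and 0 members of any compartment were lower. Fewer of all probe sets were called in these 2 fits as well. The mitochondrial median was 0.36 without NR replicate 3. The sign of each mitochondrial change was positive in all 17 alternatives run for it. Under CR, cytosolic members split 2 higher and 2 lower than NR (log2 fold change from -1.57 to 2.98), and 1 mitochondrial member, GRX5, was higher, beside the 35.2% and 33.8% of all probe sets. In CR over RM, 2 mitochondrial members were lower and 1 higher, beside 26.7% and 29.5%. These counts describe groups of 2 to 4 genes and were given no test.

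Whether paralogues changed by different amounts was tested on the difference of their log2 signals within each array, for 5 pairs in 3 comparisons. An exact two-sided permutation test of 3 against 3 arrays cannot give a p below 0.1. Of the 15 tests, 12 reached that smallest p, with no overlap between the groups, and their Benjamini-Hochberg adjusted p was 0.125, so none passed 0.05. The tests share genes and arrays, so the 12 are not independent, and no share for other gene pairs is given beside them. Sizes are therefore given as a description of these arrays.

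The reductase pair had the widest separation. The within-array difference TRR1 minus TRR2 averaged -1.49 ± 0.91 (SD, n = 3) in NR, 1.46 ± 0.13 in CR and -2.67 ± 0.13 in RM. The TRR1 to TRR2 signal ratio was 7.73-fold higher in CR than NR and 17.6-fold higher than RM (exact permutation p = 0.1 each). The second factor joins 2 opposite changes: TRR1 was 11.4-fold higher in CR than RM, and TRR2 was 1.54-fold lower. The NR range ran from -2.36 to -0.55, above every RM array.

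TRX2 minus TRX3 was tight in every group, including NR, at 1.34 ± 0.06 (SD, n = 3) in NR, 1.99 ± 0.03 in CR and 0.60 ± 0.08 in RM. NR replicate 3 was the lowest NR array for each gene, by 0.51 and 0.61 from the mean of the other 2, and their difference there was close to that on the other NR arrays. The pair separated all 3 groups: the log2 difference of changes was 0.65 for CR over NR and -0.73 for RM over NR (exact permutation p = 0.1 each). Leaving out single arrays moved the first value between 0.64 and 0.68 and the second between -0.77 and -0.69.

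TRX2 minus TRX1 was 3.11 ± 1.15 (SD, n = 3) in NR and 5.52 ± 0.05 in CR, with no overlap, and 4.35 ± 0.39 in RM, which overlapped NR. The difference of changes was 2.41 for CR over NR and lay between 1.98 and 3.06 when single arrays were left out. TRX1 minus TRX3 was -1.77 ± 1.19 in NR, -3.53 ± 0.02 in CR and -3.75 ± 0.41 in RM. CR and RM overlapped here (difference 0.22, exact permutation p = 0.4). GRX1 minus GRX2 differed by 0.59 between CR and NR and by 0.52 between CR and RM, and by 0.07 between RM and NR (exact permutation p = 0.8).

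**Figure D3:**
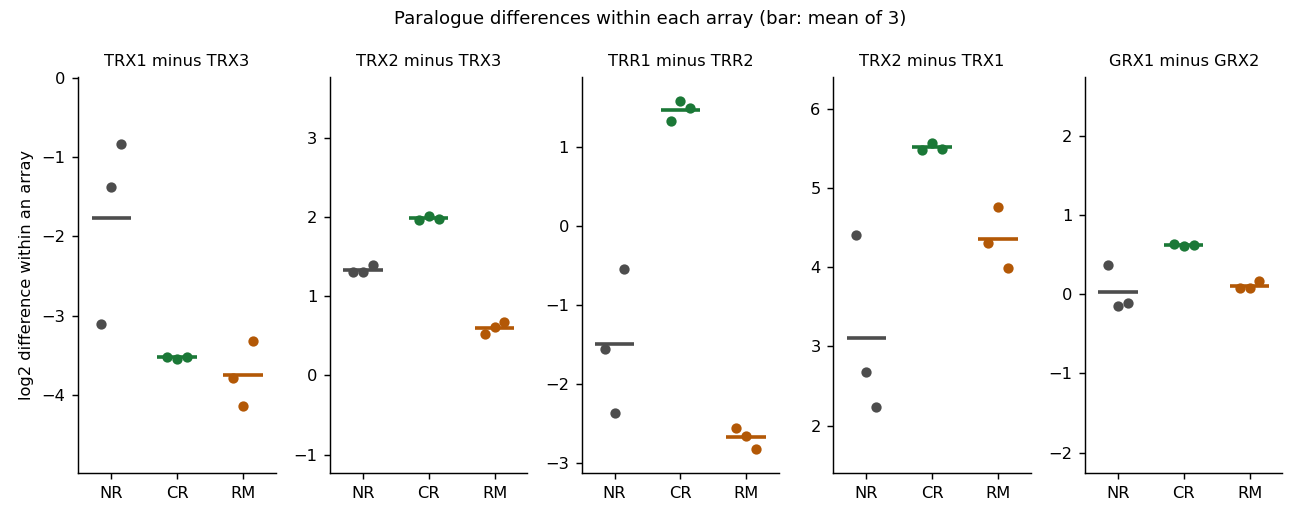
Difference of the log2 signals of 2 paralogues within each array (y axis, the same span in every panel) by group (x axis), with a bar at the mean of 3 arrays. TRR1 minus TRR2 is positive on all CR arrays and negative on the other 6, and TRX2 minus TRX3 forms 3 tight groups at 1.34, 1.99 and 0.60; differences between genes within a group do not compare their transcript numbers.

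The partners of these genes were followed in 6 lists, drawn up with earlier results of the same arrays known. Their counts stand beside 35.2% of all probe sets higher and 33.8% lower in CR over NR, 17.6% and 19.5% in RM over NR, and 29.5% and 26.7% in CR over RM. Of 14 clients of thioredoxin, 6 were higher under CR than NR and 3 lower (median log2 fold change 0.20), close to the share of all probe sets in the higher direction. The peroxidase GPX2 had a log2 signal of 5.10 to 5.20 in NR and 10.42 to 10.79 in CR, a 44.0-fold difference. The sulfiredoxin gene SRX1, which restores overoxidised peroxiredoxins, was 15.8-fold higher, and the ribonucleotide reductase gene RNR3 3.63-fold higher. The nuclear peroxiredoxin DOT5 was 2.38-fold lower. Under RM 3 were higher and 3 lower than NR, among them the main cytosolic peroxiredoxin TSA1, 1.95-fold lower, and AHP1, 1.50-fold higher. The TSA1 call was lost without 7 of the 9 arrays (all but NR replicate 1 and RM replicate 3) and with array weights per group (adjusted p up to 0.111). Array weights per group gave 5 higher and 1 lower for CR and 1 and 0 for RM. When each array was left out, CR gave 5 to 6 higher and 1 to 3 lower with a median up to 0.31 (without NR replicate 2), and RM 1 to 3 higher and 0 to 3 lower.

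NADPH supply, on which both reductase systems draw, had a median of -0.55 under CR, the lowest of these 6 lists. Of 12 genes, 3 were higher than NR and 6 lower, beside 35.2% and 33.8% of all probe sets. The aldehyde dehydrogenase ALD6 was 39.4-fold lower, the 6-phosphogluconate dehydrogenases GND1 and GND2 9.56-fold and 3.20-fold lower, and the cytosolic isocitrate dehydrogenase IDP2 3.83-fold lower. None of the 3 higher genes reached 2-fold. Under RM 1 was higher and 3 lower than NR, beside 17.6% and 19.5%, with GND1 2.88-fold lower and the NAD kinase UTR1 1.97-fold higher. In that comparison array weights per group gave 1 higher and 0 lower, where GND1 did not pass (adjusted p = 0.104), and leaving out single arrays gave 1 to 2 higher and 1 to 3 lower.

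Of 11 genes listed as regulators or other targets of Yap1, 6 were higher under CR than NR and 2 lower, and all 8 passed 2-fold (median log2 fold change 1.03). Of all probe sets 35.2% and 33.8% were called and 17.7% and 20.0% passed 2-fold. The list pools regulators with targets, so its counts and median do not describe the targets alone. The partner factor SKN7 was 5.05-fold higher, the peroxidase CCP1 4.65-fold and the exporter ATR1 4.04-fold, while the NADPH dehydrogenase OYE2 was 13.9-fold lower. Under RM 4 were higher and 2 lower, beside 17.6% and 19.5%, including FLR1, 2.70-fold higher, and the catalase CTT1, 2.35-fold higher. In CR over NR, FLR1 was not called (1.10-fold higher) and CTT1 was 3.43-fold lower. Against RM, CTT1 was 8.04-fold lower in CR and OYE3 5.38-fold higher. For RM over NR there were 4 higher and 1 lower with array weights per group, and 4 higher and 1 to 3 lower when single arrays were left out.

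Genes of mitochondrial iron-sulfur assembly, the process GRX5 serves, were higher under CR in 12 of 14 cases and lower in 1 (median log2 fold change 1.08), beside 35.2% and 33.8% of all probe sets. The scaffold gene ISU2 was 10.8-fold higher, ISA2 3.40-fold, the cysteine desulfurase NFS1 3.24-fold and the J-protein JAC1 3.20-fold. Under RM 6 were higher and 1 lower (median 0.14), beside 17.6% and 19.5%, led by the chaperone SSQ1 at 1.78-fold. Array weights per group gave 3 higher and 1 lower there, and leaving out single arrays 3 to 6 higher and 1 to 2 lower. That median fell to 0.06 without NR replicate 3 or RM replicate 2 and rose to 0.23 without NR replicate 2, 0.24 without RM replicate 3 and 0.28 without NR replicate 1. Against RM, CR was higher in 9 of 14 and lower in 0, beside 29.5% and 26.7%. GRX5 itself had log2 fold changes of 0.91 and 0.39 in the first 2 of these comparisons.

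Of 16 genes of glutathione synthesis and use, 4 were higher and 3 lower under CR than NR (median log2 fold change 0.23), beside 35.2% and 33.8% of all probe sets. That median was 0.03 without NR replicate 3, and leaving out single arrays gave 1 to 4 higher and 2 to 4 lower. GSH1, which makes the first committed step of glutathione synthesis, was 3.76-fold higher, whereas the glutathione-degrading DUG3 and DUG1 were 3.26-fold and 2.41-fold lower. Under RM 5 were higher and 3 lower, beside 17.6% and 19.5% (median 0.25, and 0.07 without NR replicate 3). The transferase genes GTO1 and GTT1 were 5.03-fold and 2.36-fold higher in RM than NR, and 4.49-fold and 4.19-fold lower in CR than RM. For RM over NR the counts were 3 and 0 with array weights per group, and 3 to 6 and 0 to 4 when single arrays were left out. For CR over RM they were 2 higher and 3 lower, 4 and 4 with the weights, and 1 to 3 and 3 to 4 without single arrays. Of the 5 other glutaredoxins, GRX6 and GRX7 of the secretory pathway went opposite ways under CR: GRX6 was 1.99-fold higher and GRX7 2.03-fold lower than NR. GRX4 was 1.45-fold higher, a call held without NR replicate 3 or RM replicate 2 and lost without each of the other 7 arrays (adjusted p up to 0.117). GRX7 was also 1.97-fold lower in RM than NR, the only call in that comparison. Leaving out single arrays gave 1 to 2 higher and 1 to 2 lower of these 5 for CR over NR, and 0 to 1 and 1 for RM over NR.

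**Figure D4:**
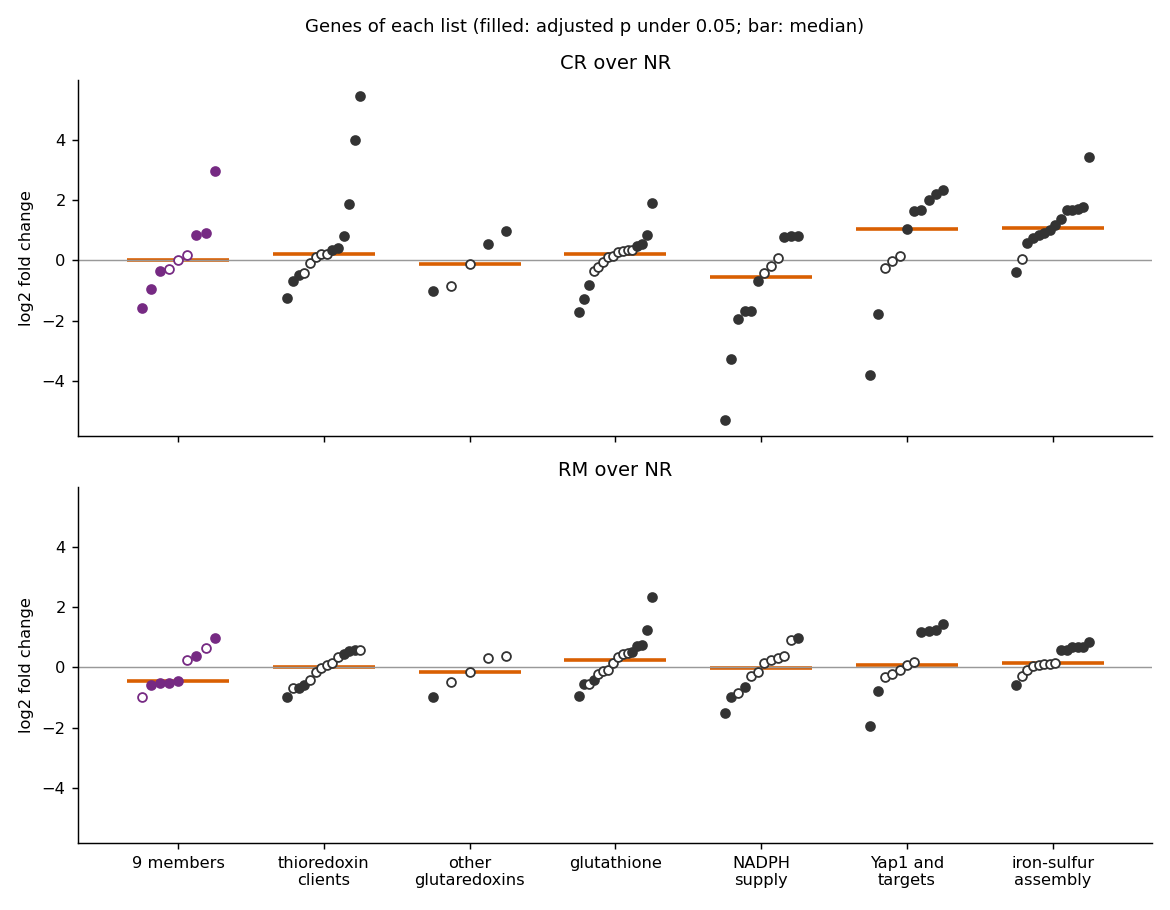
Log2 fold change (y axis) of every gene in the 9 members and the 6 lists (x axis), for CR over NR and RM over NR, with filled points at adjusted p under 0.05 and a bar at the median. Under CR the median is 1.08 for the iron-sulfur list, 1.03 for the Yap1 list, which pools regulators with targets, and -0.55 for the NADPH list. Under RM the medians lie between -0.45 for the members and 0.25 for the glutathione list, the latter 0.07 without NR replicate 3.

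The genes whose log2 signals ran most like each member over the 9 arrays were found by Pearson's r. This r takes in both differences between groups and single arrays that stand apart within a group. Among such arrays were NR replicate 1 for TRX1 and NR replicate 3 for TRX2, TRX3 and TRR2. For TRR1 they were SPC29, a spindle pole body component (r = 0.996), REB1, a general DNA-binding factor (r = 0.995), and CYT2, the heme lyase of cytochrome c1 (r = 0.994). REB1 had log2 fold changes of 2.37 for CR over NR and -0.34 for RM over NR. For TRX2 they were PEX14, a peroxisomal docking protein (r = 0.996), POP7 (r = 0.993) and the autophagy receptor ATG40 (r = 0.993). For TRX3 they were RCI37 (r = 0.995), the vacuolar mannosidase AMS1 (r = 0.991) and PRM2 (r = 0.986), and AMS1 was 1.20 higher in RM than NR on the log2 scale and 0.22 higher in CR. For TRX1 they were ERG10, which opens sterol synthesis (r = 0.993), MLC1 (r = 0.989) and YJR142W (r = 0.988). Among the members themselves r was 0.954 for TRX1 with GRX2, 0.925 for TRX2 with GRX5 and 0.897 for TRX3 with TRR2, and it was -0.927 for GRX2 with GRX5.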

How the data were processed

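Per the labels' protocols, biotinylated cRNA was made from 100 ng of TRIzol-extracted, DNase-treated and column-purified total RNA. Per the submitters' processing notes, RMA and Transcriptome Analysis Console 2.0 were used, without a stated role for either. The authors deposited log2 signals per array for 5716 probe sets, and a table of signed linear fold scores and p-values per pair of groups, whose test is not named. The log2 of the deposited folds equals the difference of group means in the log2 table within 1e-08 for all 5716 probe sets.

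The log2 signals were fitted as deposited with limma 3.58.1 in R 4.3.3 (lmFit and eBayes, no block, 6 residual and 3.27 prior degrees of freedom). Benjamini-Hochberg adjustment ran over all probe sets in each comparison. The fit was also run on simulated arrays, in which each probe set had the same spread in every group. That run cannot tell how the fit deals with the unequal spread of these groups. All 9 members matched a locus tag in RefSeq's R64 gene table, which gave the symbols. Coordinates are left out because no label names the array's build. Mean differences of single pairs were tested by exact permutation over arrays. All members are named; of each list, per comparison, at most the 4 called genes with the largest change, and the 3 genes most correlated with a member (SD at least 0.5 of the member's). Members and lists were chosen with earlier results of these data known. Deviations from the group means of arrays with the same replicate number correlated at -0.20 to 0.35 over 9 pairs, at 0.35 for NR with RM replicate 3 and under 0.1 for the other 8, so the numbers were not treated as pairing the arrays. The number of arrays limits the precision. Alternatives were other scalings, filters, fits and calls, and leaving out each array.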

Additional observations from a re-analysis of the deposited data

How the results depend on the processing

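Of the 17 calls on members, 10 passed in all 17 refits with the same call: TRR1, TRX2, GRX5, TRX1 and GRX2 in CR over NR, TRX3 in RM over NR, and TRR1, TRX2, TRX3 and GRX5 in CR over RM. Over 459 values of members under 17 alternatives, 386 kept their direction and side of the threshold, 57 lost the call, 13 gained one and 3 changed sign. Those 3 were uncalled: CR over NR for TRR2, at -0.015 with arrays centred on their median and -0.27 to 0.29 when single arrays were left out, and for TRX3, at -0.013 to 0.31 when single arrays were left out. The cause was not tested. Of the 17 calls, 13 had a p-value under 0.05 in the authors' deposited table, and 0 of the 10 uncalled values did.

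Leaving out each array gave 2 to 4 members lower in CR over NR, 1 to 2 higher and 0 to 4 lower in RM over NR, and 1 to 3 lower in CR over RM. With array weights per group, added after the data were seen, RM over NR had 1 higher and 0 lower and CR over RM 4 lower, and the fit to the 2 groups alone gave the same counts. Arrays centred on their median or quantile normalization repeated gave 3 higher in RM over NR. With the replicate block RM over NR had 1 higher and CR over RM 1 lower, and GRX1 in CR over NR and TRR1 in RM over NR were lost too. At least 2-fold with adjusted p under 0.05 left 1 higher and 1 lower in CR over NR, 0 and 0 in RM over NR, and 1 and 0 in CR over RM, the same counts as a deposited fold of at least 2 with p under 0.05. GRX1 minus GRX2 for RM over NR turned to -0.021 without NR replicate 2 and -0.001 without NR replicate 3, in a range up to 0.24. The replicate block alters only the test of the within-array differences, so their values could not change with it. Over all probe sets RM over NR gave 1007 higher and 1113 lower, but 560 and 473 with array weights per group and 478 and 451 with the 2 groups alone.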

Other observations

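NR replicate 3 differed from the other NR arrays in mating genes outside the comparisons above. The a-factor gene MFA1 had log2 signals of 8.49, 9.13 and 10.75 on the NR arrays, and the receptor gene STE2 7.26, 7.37 and 8.69. On the CR arrays MFA1 lay between 8.35 and 8.58. The alpha-type receptor gene STE3 was 6.80 ± 0.04 (SD, n = 3) in CR, 5.12 ± 0.49 in NR and 5.77 ± 0.04 in RM.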
